A study of Caenorhabditis elegans with 2 samples.

Results

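Mitochondrial ribosomal protein genes are the nuclear genes for the protein subunits of the ribosome inside mitochondria. They were taken as the protein-coding genes of the worm Caenorhabditis elegans whose names start with mrpl- (large subunit) or mrps- (small subunit) in the Ensembl annotation of the assembly WBcel235. This gave 70 members, 41 named for the large and 29 for the small subunit, among 19973 nuclear protein-coding genes. Subunits given below for members are those of the gene names, which need not match the protein's place. RefSeq product names were found for all 70, and 69 of them name a ribosomal protein. The exception was mrps-27, whose product is annotated as an Ig-like domain protein. For mrps-18C the product name is that of the large-subunit protein uL3m, although the gene name places it in the small subunit. The product name of mrpl-48 is that of a small-subunit domain, uS10.

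Chromatin immunoprecipitation with sequencing (ChIP-seq), which enriches DNA fragments bound by a chosen protein, was done on strain RW12295. The strain carries st12295[Y67H2A.10::TY1::EGFP::3xFLAG] on chromosome IV, a CRISPR insertion that tags the gene Y67H2A.10 with TY1, EGFP and 3xFLAG. RefSeq names its product as a C2H2-type domain protein, a kind of zinc finger found in many DNA-binding proteins. Both samples were whole young adults of 63 hours, grown from bleached and L1-starved worms, and are biological replicates 1 and 2 of the only group. Chromatin was sonicated to 200 to 800 bp and precipitated through the EGFP part of the fusion protein, and samples of untagged worms were not analysed here. As whole animals were used, a peak present in few cells and a weak peak present in many cells cannot be told apart. Read counts are not part of the deposited lists, and sequencing depth is therefore unknown.

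Mitochondrial ribosomes translate the few proteins encoded by mitochondrial DNA, which are core subunits of the respiratory chain and the ATP synthase. Their RNA comes from the mitochondrial genome, whereas in animals all of their proteins are encoded in the nucleus, translated in the cytosol and imported. Some of these proteins have bacterial counterparts and others occur only in mitochondrial ribosomes. In C. elegans, knockdown of mrps-5, a gene of the small subunit, is known to prolong life span and to induce the mitochondrial unfolded protein response.

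A member was counted as carrying a peak when a peak summit lay in a promoter window, from 500 bp upstream to 100 bp downstream of any of its transcript 5′ ends. Peaks came from a ranked list of 22544 candidate records, made on the pooled reads with the replicates as the compared pair, and from the conservative list of the 709 records of it that passed a threshold. That threshold was on the irreproducible discovery rate (IDR), which estimates how many of the peaks ranked at least as high fail to recur between the compared lists, and the highest IDR kept was 0.00995. The signal of a peak is the authors' own peak height, with a scale not given in the sources used here, and percentiles are ranks of that signal within 1 list.

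The sequences are shown first for mrpl-28 and for 4 other member promoters. Those were chosen for a high signal or for a word more frequent at conservative summits than at other ranked summits. The summit of mrps-35, the member with the highest signal, lies in an exon and is not printed, nor is that of mrpl-34. Each is read 5′ to 3′ on the strand of the member, from RefSeq sequence of WBcel235 (the build ce11), and covers annotated intergenic bases only. Capitals mark the words ACGCGC and GCGCGC, and the word TCCTCTC, on either strand. The stretch of mrpl-28 is II:156010-156300 on the minus strand, the part of its conservative region that lies outside the gene.
mrpl-28: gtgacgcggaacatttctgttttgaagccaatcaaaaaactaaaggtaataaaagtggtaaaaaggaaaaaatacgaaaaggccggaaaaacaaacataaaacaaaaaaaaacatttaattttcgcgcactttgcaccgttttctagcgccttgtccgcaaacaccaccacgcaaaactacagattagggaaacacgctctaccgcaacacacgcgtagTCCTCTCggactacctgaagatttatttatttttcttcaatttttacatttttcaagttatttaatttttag
The stretch of mrps-7 is IV:14767861-14767961 on the minus strand, with the summit in its middle.
mrps-7: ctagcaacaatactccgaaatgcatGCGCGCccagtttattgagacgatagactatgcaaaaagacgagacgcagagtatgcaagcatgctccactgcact
The stretch of mrpl-55 is IV:443818-443918 on the plus strand, with the summit in its middle.
mrpl-55: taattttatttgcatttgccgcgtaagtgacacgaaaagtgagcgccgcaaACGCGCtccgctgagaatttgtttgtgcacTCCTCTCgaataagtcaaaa
The stretch of mrpl-18 is III:8144689-8144789 on the plus strand, with the summit in its middle.
mrpl-18: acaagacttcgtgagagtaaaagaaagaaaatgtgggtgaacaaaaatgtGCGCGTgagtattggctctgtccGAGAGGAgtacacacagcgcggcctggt
The stretch of mrpl-40 is III:87382-87428 on the plus strand and starts just beyond the summit.
mrpl-40: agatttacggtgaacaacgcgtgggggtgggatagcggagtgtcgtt

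Only mrpl-28 of the large subunit carried a peak of the conservative list, and no member of the small subunit did. That is 1 of 70 members, or 1.43%, against 2.31% of all protein-coding genes, so the members' share was near the background and is not a result about them. The 95% Wilson interval of the members' share ran from 0.253% to 7.66%, which covers the number of genes only. In the pooled list, in which the pooled reads were compared with themselves, 1 member was found against 2.3% of all genes, and that member was mrps-35 of the small subunit. The thresholded list of replicate 1 also held mrps-35 alone, against 1.22% of all genes. The thresholded list of replicate 2 held no member, against 1.51% of all genes.

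mrpl-28 encodes bL28m, a protein of the large subunit with a bacterial counterpart, and lies at II:154881-156009 on the minus strand. Its region spans II:156005-156300, and the summit at position 156153 lay 144 bp upstream of the 5′ end, between genes. The nearest other gene, T25D3.3, lay 1208 bp from the summit, and no other gene's promoter window held it. In the replicates' own ranked lists the promoter had a signal of 41.8 at percentile 96.5 in replicate 1 and of 35.9 at percentile 95.8 in replicate 2. The IDR within each replicate was 0.681 in replicate 1 and 0.221 in replicate 2, so neither replicate's own thresholded list held it. The ranks were alike, with the summit of replicate 2 nearer the gene, 67 bp upstream of the 5′ end. In the conservative list its signal of 82.8 was rank 598 of 709, at percentile 15.8, below the list's median of 103. Its IDR was 0.0098 and its score 834, where the lowest score kept was 831. The same region had an IDR of 0.0341 in the ranked list of the pooled reads and is not in the pooled thresholded list.

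mrps-35 encodes mS35, a small-subunit protein found only in mitochondrial ribosomes, and lies at V:18981306-18985865 on the plus strand. Its region spans V:18981066-18981361, with the summit 92 bp upstream of the 5′ end of mrps-35. The same summit lay in an annotated 5′ UTR exon of the opposite-strand gene sws-1 and 64 bp upstream of another 5′ end of it. The product of sws-1 acts in homologous recombination. The signal was 66.2 at percentile 99.0 in replicate 1 and 31.1 at percentile 92.0 in replicate 2. Replicate 1 kept the peak past its own threshold, with an IDR of 0.00507 and rank 215 of 325, whereas in replicate 2 the IDR was 0.367. Between the replicates the signal was 89.2 and the IDR 0.0130. The region therefore had a higher signal than that of mrpl-28 and fell short of the conservative threshold, although its IDR of 0.00298 placed it in the pooled list at rank 501 of 683.

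**Figure D1:**
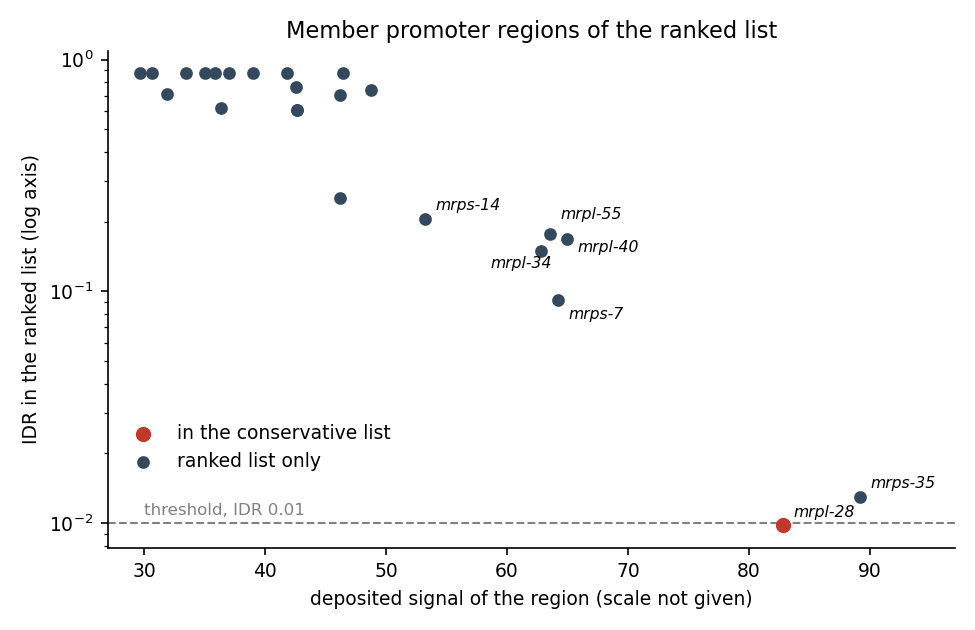
Deposited signal (x axis, scale not given) and IDR (y axis, log) of the ranked-list region of each of 24 members; mrpl-1 and mrps-24 share 1 region and 1 point. The point of mrpl-28 lies just under the dashed threshold at an IDR of 0.01, that of mrps-35 just above it at 0.0130, and all others lie at 0.0918 or more.

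With records short of the threshold included, more members carried a summit. In the ranked list 24 of 70 members did, or 34.3% (95% Wilson interval 24.2% to 46.0%), against 18.9% of all protein-coding genes. These were 13 of the 41 large-subunit genes and 11 of the 29 small-subunit genes, or 31.7% and 37.9%, with intervals that overlap. By number alone, 43 members were classed with proteins that have a bacterial counterpart and 27 with proteins found only in mitochondrial ribosomes. Of these, 16 and 8 carried a ranked summit. The class was also read from labels such as uL or mL in RefSeq product names, which 51 members have. For members without such a label, mrpl-55 among them, the class by number was not checked and may be wrong. Where a label was present, the class was compared with that by number. It differed from the numbering for mrpl-34, which is named as mL43. It also differed for mrpl-48, where the label uS10 names a domain and does not class the protein.

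Most of these ranked peaks were weak. The median signal over the 24 members was 42.6, at percentile 66.0 of the ranked list, against 44.3 at percentile 70.7 over the 3782 genes with a ranked summit. The median IDR was 0.708 for the members and 0.674 for all such genes. At the highest IDR in the list, 0.873, stood 9 members, or 37.5%, against 32.3% of all such genes. The higher share of members with a ranked summit depended on how regions were assigned to genes: with each region given to the gene of the nearest 5′ end at any distance, 34 of 70 members, or 48.6%, had one, against 51.2% of all genes. At or above percentile 90 of signal, a level chosen after the values were seen, the count was 6 of 70 members, or 8.57% (3.99% to 17.5%), against 5.11% of all genes.

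Those 6 members are mrps-35, mrpl-28, mrpl-40, mrps-7, mrpl-55 and mrpl-34. mrpl-40, for the mitochondrial-only protein mL40, had a signal of 39.3 in replicate 1 and 24.8 in replicate 2, at percentiles 95.5 and 77.8. Replicate 1 was the higher of the pair, and between the replicates the signal was 65.0 and the IDR 0.168. Its summit lay 181 bp upstream of mrpl-40 and 3 bp inside the divergent gene F54C4.4, in a 5′ UTR. mrps-7, for uS7m, whose counterpart in Escherichia coli organises the head of the small subunit, had a signal of 29.9 in replicate 1 and 33.2 in replicate 2. The percentiles were 84.9 and 94.2, with the summits 184 and 173 bp upstream of the gene, so position differed little. Between the replicates the signal was 64.2 and the IDR 0.0918, and the divergent gene Y57G11C.3 began 290 bp from the summit, farther than mrps-7.

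mrpl-55, of the large subunit, fell in the mitochondrial-only class by its number alone, which its product name does not state. It had a signal of 27.4 in replicate 1 and 32.1 in replicate 2, at percentiles 77.2 and 93.2. Here replicate 2 ranked it higher. Between the replicates the signal was 63.6 and the IDR 0.177, and the summit 117 bp upstream was in no other gene's window. mrpl-34 had a signal of 31.4 in replicate 1 and 26.8 in replicate 2, at percentiles 88.1 and 84.2. Its summit lay 284 bp upstream of mrpl-34 and 126 bp upstream of lid-1, a coactivator of a lipase, so the neighbour was nearer. Between the replicates its signal was 62.8 and its IDR 0.149.

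The next members fell off in signal. mrps-14, for uS14m, reached 53.2 with an IDR of 0.206, and its summit lay 13 bp inside the gene, in a coding exon. Its signal was 30.9 in replicate 1 and 25.3 in replicate 2. mrpl-17, for bL17m, a neighbour of the polypeptide exit tunnel in bacterial ribosomes, reached 48.7 with an IDR of 0.740 and had no overlapping record in replicate 1. Its summit was shared with the divergent gene vbh-1, which encodes a DEAD-box RNA helicase. mrps-18.C, for an S18 protein of the small subunit, reached 46.4 at the highest IDR, with a summit 61 bp inside its coding sequence. mrpl-18, for uL18m, which binds 5S rRNA in bacteria, reached 46.2 with an IDR of 0.252. Its summit lay 276 bp upstream of mrpl-18 and 110 bp upstream of the divergent gene C14B9.8.

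Of the small-subunit gene mrps-12, for uS12m of the decoding centre, the summit was the farthest from a 5′ end, 497 bp upstream and in the 3′ UTR of num-1, and its signal was 46.2. At the other edge of the window, the summit of mrps-15 lay 92 bp downstream of an inner 5′ end of the gene, in an intron. Its signal was 39.0. Just outside the window, a conservative peak of signal 90.8 on chromosome I lay 549 bp from the 5′ end of mrpl-15, for uL15m, and no promoter window held it.

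mrpl-1 and mrps-24 stand back to back on chromosome IV and shared 1 ranked region, of signal 42.6 and IDR 0.608. mrpl-1 encodes a large-subunit protein whose bacterial counterpart forms the mobile L1 stalk, and the product of mrps-24 is named as uS3m. The summit lay 141 bp upstream of mrpl-1, 203 bp upstream of mrps-24 and 106 bp upstream of emc-6, for a subunit of the endoplasmic reticulum membrane protein complex. In replicate 2 the record overlapping this region had a signal of 32.9 at percentile 94.0, and replicate 1 had no overlapping record. Replicate 1 had a summit in another window of mrpl-1, 60 bp upstream of a 5′ end and of signal 34.9 at percentile 92.7. So mrpl-1 counted in both replicates by different peaks, while mrps-24 counted in replicate 2 only.

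The remaining 11 members of the ranked list had signals from 29.6 to 42.6, and 8 of them stood at the highest IDR. They were mrps-27, mrpl-49, mrpl-38, mrps-34, mrpl-19, mrpl-30, mrpl-41, mrps-2, mrpl-20 and mrps-11, besides mrps-15. mrps-34, for a mitochondrial-only protein, shared its summit, 73 bp from its 5′ end, with cisd-3.1, a gene for an iron-sulfur protein, which began 356 bp from it. mrpl-20 was the only one of the 24 with no overlapping record in either replicate's own list.

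**Figure D2:**
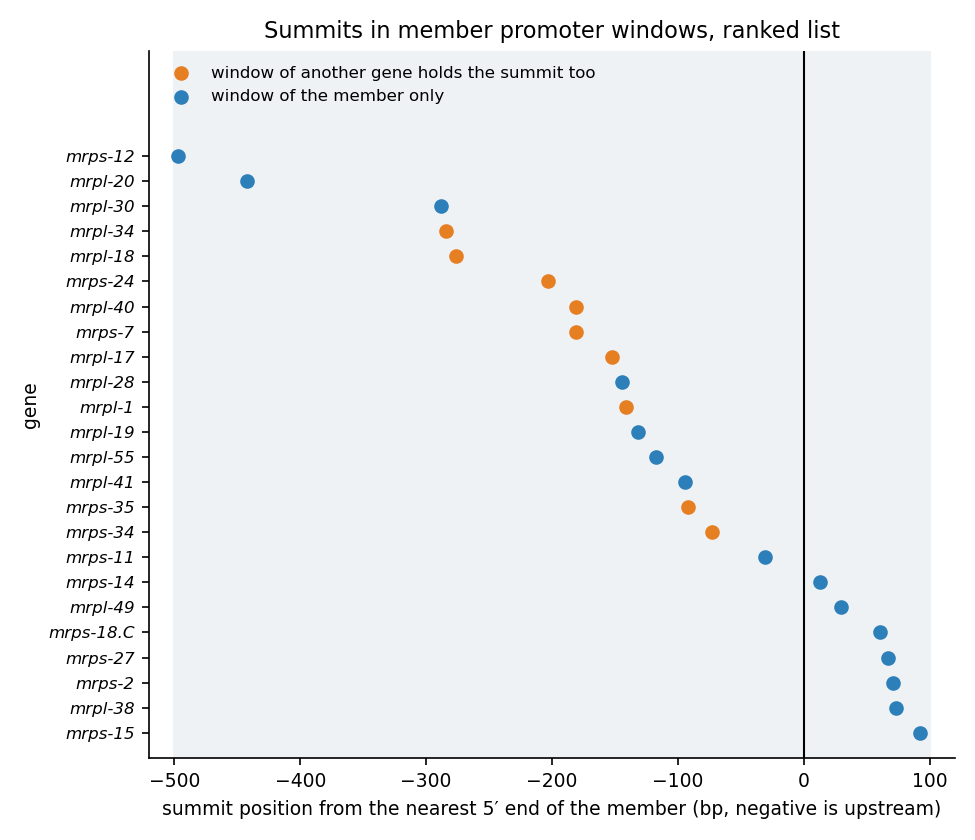
Position of the ranked-list summit of 24 members (rows) from the nearest 5′ end of the member, in bp, with negative values upstream and the shaded promoter window from 500 bp upstream to 100 bp downstream. Summits of 17 members lie upstream and of 7 inside the gene; orange points are summits that the window of another gene holds too.

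The 24 members held 23 distinct ranked regions, of which 8 lay in the window of another gene too and 15 did not. For mrps-35, mrpl-40, mrpl-34, mrpl-18, mrpl-1 and mrps-24 the 5′ end of the other gene was nearer to the summit than that of the member, whereas for mrps-7, mrpl-17 and mrps-34 the member was nearer than the gene outside the list. Member summits had a median distance of 124.5 bp upstream of the 5′ end, against 184 bp over all genes with a ranked summit. By annotation, 12 summits fell between genes, 7 in a coding exon, 2 in a 5′ UTR, 1 in a 3′ UTR and 1 in an intron. No non-coding gene lay within 200 bp of any of the 23 summits, and the nearest was 711 bp away. Placement, shared windows and distance to non-coding genes were not counted over all ranked promoter regions. These counts therefore describe the members and do not set them apart.

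Read apart, the replicates placed summits in the windows of partly different members. Replicate 1 held 25 members in its ranked list, or 35.7%, against 22.8% of all genes, and replicate 2 held 26, or 37.1%, against 27.8% of all genes. Both replicates held 16 members, or 22.9% (14.6% to 33.95%), against 12.6% of all genes. Any promoter summit in each replicate sufficed, so the peaks need not be the same. Besides those of mrpl-1, the peaks of mrps-15 differed. In replicate 1 its summit lay 437 bp upstream of the outermost 5′ end, and in replicate 2 it lay 91 bp downstream of an inner one. The summits of mrpl-32 lay 333 and 6 bp upstream. A further 9 members, or 12.9%, were found in replicate 1 only, against 10.2% of all genes, and 10, or 14.3%, in replicate 2 only, against 15.2%. Members and all genes alike were found in 1 replicate alone more often than in both. Of the 16, all but mrpl-32 were also in the ranked list made between the replicates.

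Rank agreement differed between members. For mrpl-28 the percentiles were 96.5 and 95.8 in replicates 1 and 2, and for mrpl-38, at the weak end, they were 24.5 and 23.6. For mrps-11, a protein at the platform of the small subunit in bacteria, they were 1.28 and 79.4. For mrpl-19 they were 14.8 and 69.2. Over the 14 distinct regions with an overlapping record in both replicates, Spearman's rho of the percentiles was 0.57, given as a description, since the regions were picked from reads that the replicates supplied and the depth of each is unknown.

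**Figure D3:**
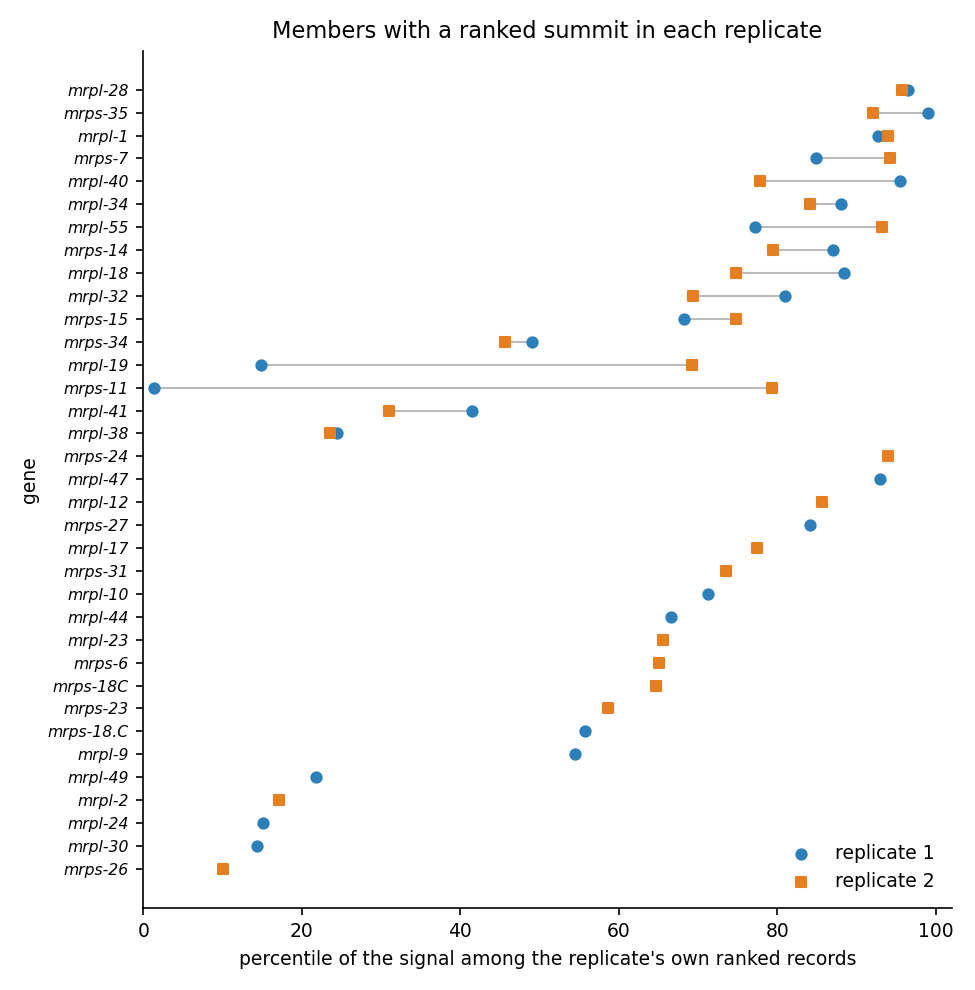
Percentile of the signal within each replicate's own ranked list (x axis) for the 35 members with a promoter summit in replicate 1 (blue circles) or replicate 2 (orange squares), taking the highest summit in each; grey lines join both values of a member. The 16 members with both values stand at the top, and mrps-11 has the widest gap, from 1.28 in replicate 1 to 79.4 in replicate 2.

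Over the ranked lists of the pair, of the pooled reads and of each replicate, 40 members, or 57.1%, had a summit in at least 1 list, against 40.6% of all genes. In all 4 lists 14 members, or 20%, had one, though not always the same one, against 10.3% of all genes. Those 14 were mrpl-1, mrpl-18, mrpl-19, mrpl-28, mrpl-34, mrpl-38, mrpl-40, mrpl-55, mrps-7, mrps-11, mrps-14, mrps-15, mrps-34 and mrps-35. Outside the pair's list but in at least 1 other were mrpl-2, mrpl-9, mrpl-10, mrpl-12, mrpl-23, mrpl-24, mrpl-32, mrpl-42, mrpl-44, mrpl-47, mrps-6, mrps-18C, mrps-23, mrps-26, mrps-28 and mrps-31. Among those with a summit in a replicate's own list, mrpl-47, for uL29m, ranked highest, with a signal of 35.2 at percentile 93.0 in replicate 1 and no promoter summit in replicate 2. mrpl-12 had a signal of 27.3 at percentile 85.7 in replicate 2 only.

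In no ranked list did 30 members have a promoter summit, mrps-5 among them. The other 40, or 57.1%, had one in at least 1 list, against 40.6% of all genes. The large-subunit genes without one were mrpl-4, mrpl-11, mrpl-13, mrpl-15, mrpl-16, mrpl-21, mrpl-22, mrpl-35, mrpl-36, mrpl-37, mrpl-39, mrpl-45, mrpl-46, mrpl-48, mrpl-50, mrpl-51, mrpl-53 and mrpl-54. The small-subunit genes were mrps-5, mrps-9, mrps-10, mrps-16, mrps-17, mrps-18A, mrps-18B, mrps-21, mrps-22, mrps-25, mrps-30 and mrps-33. With depth unknown, their lack of a listed peak says only that none was listed.

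The nearest conservative summit lay at a median of 36026.5 bp from a 5′ end of the members, against 60273 bp for all protein-coding genes. It lay within 2000 bp of 5 of the 70 members, or 7.14%, against 4.61% of all genes. Besides mrpl-28 and mrpl-15, these were mrps-21 at 1005 bp, mrps-28 at 1091 bp and mrpl-48 at 1599 bp. The peak near mrps-21, of signal 94.0, was in the promoter windows of F29B9.11 and jmjd-1.2, a histone demethylase gene. The next was 2494 bp from mrps-6, nearest to the small nuclear RNA gene sls-2.4.

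Genes of related functions were set beside the members. A conservative summit was found at 1 of 70 members, against 26 of 78 genes for cytosolic ribosomal proteins, named rpl- or rps-, or 33.3% (23.9% to 44.4%). That count depended on the window: with one from 200 bp upstream it was 1 of 70 members against 3 of 78 cytosolic genes. The share of all genes was 1.14% there, in place of 2.31%. The cytosolic count was 16 without replicate 2, and also 16 with each region given to the nearest 5′ end alone. Those settings gave 1.22% and 3.11% of all genes. The signal of 82.8 at mrpl-28 was below those of the strongest cytosolic genes, which were 535 at rpl-3, 462 at rpl-15, 341 at rpl-35 and 334 at rps-19. In the ranked list, the 24 members had a median percentile of 66.0 and a median IDR of 0.708, whereas 60 of the 78 cytosolic genes had a summit with a median percentile of 96.4 and a median IDR of 0.0378. The member summits also lay nearer the gene, at a median of 124.5 bp upstream against 283 bp for the cytosolic genes. No test of this difference was made, as both lists were chosen with results known.

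Among the partners of the mitochondrial ribosome, the nuclear genes of the respiratory chain and ATP synthase carried a conservative summit in 8 of 43 cases, or 18.6%, and a ranked summit in 24, or 55.8%, beside 2.31% and 18.9% of all genes. Their highest signals were 330 at cox-5B, 213 at cox-5A and 202 at cox-6B, all for cytochrome c oxidase subunits, and 180 at atp-1, for the alpha subunit of the ATP synthase. Of 23 genes for mitochondrial gene expression apart from the ribosome, 2 carried a conservative summit, or 8.70% (2.42% to 26.8%), and 10 a ranked one, or 43.5%. These 2 were mtcu-2, for a modifier of mitochondrial tRNA, with a signal of 409, and ears-2, for a mitochondrial glutamyl-tRNA synthetase, with 169. Of 13 genes for mitochondrial protein import, tin-13, for a chaperone of the space between the membranes, carried the only conservative summit, with a signal of 95.04, and 4 carried a ranked one, or 30.8% (12.7% to 57.6%), an interval that holds the 18.9% of all genes. Of 10 genes for mitochondrial chaperones, proteases and stress response, none carried a conservative summit and 5 a ranked one, or 50% (23.7% to 76.3%).

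**Figure D4:**
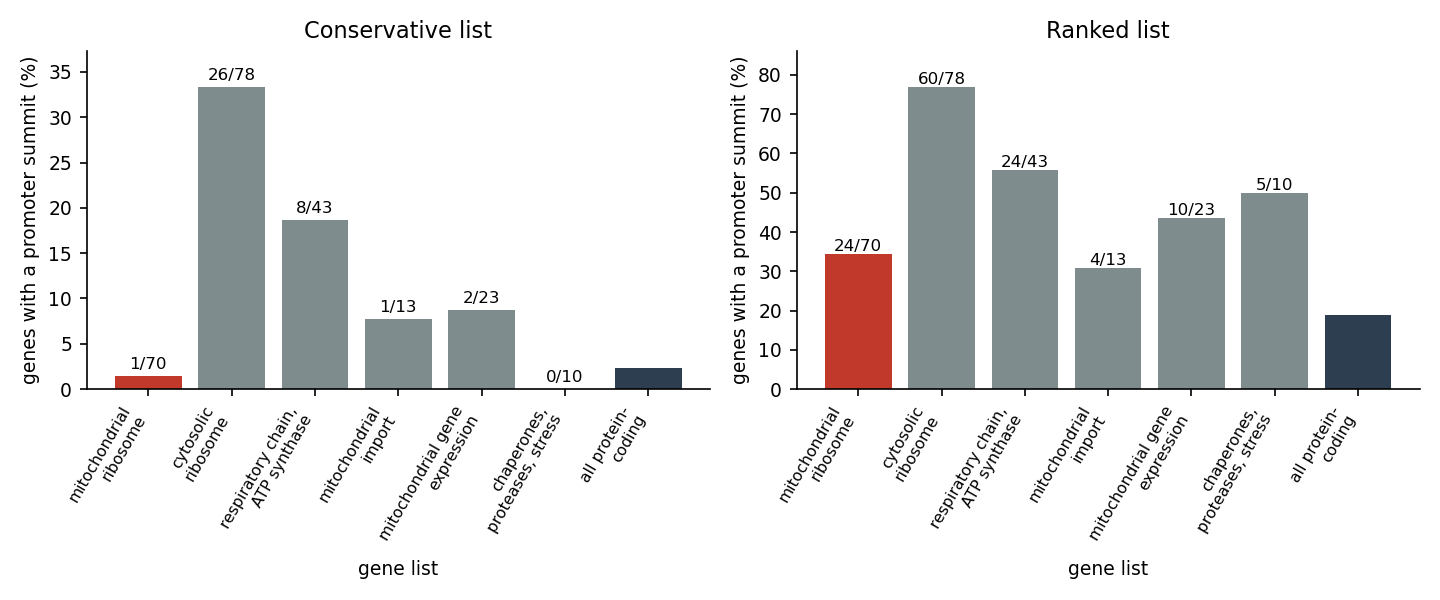
Share of genes with a summit in a promoter window (y axes in percent, scaled separately) in the conservative list (left) and the ranked list (right), for the mitochondrial ribosome (red), 5 other gene lists (grey) and all 19973 protein-coding genes (dark blue); labels give genes with a summit over genes in the list. In the conservative list the members stand at 1.43% and the cytosolic ribosome at 33.3%, beside 2.31% of all genes.

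The neighbours of the members were counted in the same way as those of all genes. In worms many genes lie in operons, in which a gene is transcribed from the promoter of an upstream gene, so the window before a downstream gene need not hold a promoter. A gene on the same strand ended within 500 bp upstream of the outermost 5′ end, or overlapped it, at 28 members, or 40%, against 20.7% of all protein-coding genes. A divergent gene began within 500 bp upstream or 100 bp downstream of it at 18 members, or 25.7%, against 9.37% of all genes. Both counts leave out genes with the 2 kinds of neighbour together, which were mrpl-1 among the members and 0.15% of all genes. Neither kind was found at 23 members, or 32.9%, against 69.8% of all genes.

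Peaks were seen in each of these arrangements. A ranked summit was found at 9 of the 28 members with a same-strand gene upstream, or 32.1%, against 18.97% of all genes so placed. It was found at 8 of the 18 with a divergent neighbour, or 44.4%, against 33.4%, and at 6 of the 23 with neither, or 26.1%, against 17.0%. mrpl-28 and mrps-35 were counted among those with neither, and sws-1, whose body overlaps the 5′ end of mrps-35, was not counted as its neighbour. The part of the arrangement in the members' share of ranked summits was not tested.

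Base composition of the promoter window, taken at the outermost 5′ end of each gene, was close to that of all genes. The GC content of the promoter window was 34.6% ± 3.12 (SD, n = 70 genes) for the members and 35.04% ± 4.31 (SD, n = 19973 genes) for all genes. Members with a ranked summit averaged 34.8% and those without averaged 34.5%, while the 462 genes with a conservative summit averaged 37.7%. Within 50 bp of the 23 member summits the GC content was 40.6% ± 9.97 (SD), from 22.8% to 64.4%. It averaged 49.0% at the 666 conservative regions and 40.1% at ranked regions outside the conservative list. All member regions but that of mrpl-28 are among the latter, so a mean near theirs is no separate result.

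Words more frequent at conservative summits than at other ranked summits were counted at the members' peaks. All of these peaks but that of mrpl-28 lie outside the conservative list. ACGCGC on either strand, which can overlap GCGCGC, lay within 50 bp of 2 of the 23 member summits, or 8.70%, against 17.3% of conservative regions and 3.02% of ranked regions outside that list. These were the summits of mrpl-55 and mrpl-18, printed above. GCGCGC lay at 1 summit, that of mrps-7, or 4.35%, against 13.5% of conservative and 1.83% of other ranked regions. GTCTCGCA lay at none, against 3.90% and 0.43%. In the whole promoter window of the outermost 5′ end, ACGCGC was present in 10 of 70 members, or 14.3%, against 10.2% of all genes. GCGCGC was present in 6, or 8.57%, against 5.95%, and GTCTCGCA in 1, or 1.43%, against 1.61%. A match is a description of the letters and not a bound site.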

How the data were processed

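ChIP-seq peaks of 2 biological replicates of the tagged strain were read from 8 deposited lists on ce11, the assembly WBcel235. Per the deposited text records, the authors called peaks against a control in either replicate and in the pooled reads, and compared replicates with each other (the conservative list and its ranked list) or data with themselves (the other lists). By those records the thresholded lists also derive from 1 further file, of unstated content. Aligner and peak caller were not given in the sources used here. Score values are the authors' rescaled IDR, at most 1000. As signal the authors deposited the height of each peak, used only within a list. The ranked lists hold the deposited −log10 of the IDR, converted here to the IDR. In the tables of the whole series, 16 columns on the compared pair were not used. The lists hold no depth, so intervals (95% Wilson) cover the number of genes only.

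Overlapping records were merged to 1 region with the summit and signal of the strongest record. Transcript 5′ ends came from Ensembl release 115 (29773 distinct ends, 79 of members), and product names and sequence from RefSeq. Positions are 1-based. Shares of members with a summit were set beside the same share of all nuclear protein-coding genes. Placement, shared windows and distance to non-coding genes were described for members only. No test was made, since there is 1 group and no control sample. The assignment of summits to windows was tested on simulated regions. Python 3.11.15 with pandas 2.3.3, numpy 2.4.6, scipy 1.17.1 and matplotlib 3.10.9 was used.

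The members, the other lists and the alternatives were chosen with earlier results of these data known. The text names members with a thresholded or ranked summit, in order of signal, the 5 members without a ranked summit nearest a conservative peak, genes that share a named region, and up to 4 genes per other list by signal. The genes mrpl-47, mrpl-12 and mrpl-32 were named after their values were seen. Of the list of mitochondrial gene expression, 3 symbols were absent from the annotation. Alternatives were other lists, thresholds, windows, overlap rules and assignments.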

Additional observations from a re-analysis of the deposited data

How the results depend on the processing

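The count of members with a conservative summit, 1 of 70, changed with several settings. An IDR threshold of 0.001 left 0 members, against 1.36% of all genes. One of 0.05 gave 2, mrpl-28 and mrps-35, against 3.09% of all genes. A window from 1000 bp upstream, any base of the region in the window in place of the summit, and assignment to the nearest 5′ end each gave 2, mrpl-28 and mrpl-15. The shares of all genes under these settings were 3.01%, 2.59% and 3.11%, against 2.31% in the main setting. The count of members was 0 without replicate 1, against 1.51% of all genes. It was 1 without replicate 2 (mrps-35 in place of mrpl-28), against 1.22%. The pooled list also gave mrps-35 in place of mrpl-28, against 2.3%. The ranked count of 24 ran from 16 to 34 over the other settings, with the members' share above that of all genes except under assignment to the nearest 5′ end at any distance (34 members, or 48.6%, against 51.2%), and from 25 to 26 when 1 replicate was left out, but was 6 at or above percentile 90 of signal, added after the data were seen. The 16 members found in both replicates became 26, or 37.1%, with a window from 1000 bp upstream. The share of all genes rose from 12.6% to 20.6% there. The 26 cytosolic ribosomal genes were recounted after the data were seen. With a window from 200 bp upstream they became 3, and the share of all genes fell from 2.31% to 1.14%. With assignment to the nearest 5′ end they became 16, against 3.11% of all genes. They were 16 without replicate 2, against 1.22%, and 23 without replicate 1, against 1.51%. Beyond the settings' own construction, the cause was not tested. Depth is unknown and limits what the lack of a peak shows. The signal of mrpl-28 was 82.8 without merging too, and the pooled list gave no value for it. No paired analysis was possible because there is only 1 group.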

Other observations

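TCCTCTC was a word picked after the member sequences had been read. On either strand, it was present in the window of the outermost 5′ end at 10 of 70 members, or 14.3%, against 7.83% of all protein-coding genes. Within 150 bp of the summit it lay at 5 of the 23 member regions, or 21.7%, those of mrps-35, mrpl-28, mrpl-55, mrpl-18 and mrpl-20. It lay there at 8.11% of conservative regions and 4.34% of ranked regions outside that list. Since the word was chosen on these sequences, the counts are a description.

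On chromosome III lay 22 of the 70 members, or 31.4%, against 13.2% of all protein-coding genes, and 4 of those 22 carried a ranked summit, against 24.5% of all genes there. On X lay none of the 70, against 13.7% of all genes. Chromosome V held 10 members, of which 5 carried a ranked summit, against 15.4% of all genes there. A ranked summit was found at 6 of 15 members on I, 5 of 12 on II and 4 of 11 on IV. The shares of all genes on these were 24.7%, 17.7% and 20.3%.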
